A study of Mus musculus with 9 samples.

Results

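The genes that make and control testicular androgen form the set described here: Lhcgr, Star, Cyp11a1, Hsd3b1, Hsd3b6, Cyp17a1, Hsd17b3, Srd5a1, Akr1c14 and Insl3. They were taken by gene name, as a set chosen with earlier results of these data known. Each of the 10 had a single row, 10 of the 29661 rows and 10 of the 23515 gene symbols in the table. The study profiled RNA of C57BL/6 mouse testis at postnatal day 10 in 3 Lin28a knockout and 3 wild type libraries, as the labels have it. The titles of the knockout libraries abbreviate the genotype as cKO; the labels name neither a Cre driver nor an allele, and give no animal behind a library. Another 3 samples, in which RNA bound to LIN28A was recovered, were not analysed here. Each group is represented by 1 pooled FPKM value (fragments scaled to transcript length and to library size), so no spread between libraries stands beside any level below, and library depth is unknown.

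Leydig cells lie in the interstitium between the seminiferous tubules and make testosterone from cholesterol. Luteinizing hormone binds the receptor encoded by Lhcgr and raises cAMP; STAR then brings cholesterol to the inner mitochondrial membrane, where CYP11A1 cuts its side chain to give pregnenolone. HSD3B enzymes, CYP17A1 and HSD17B3 turn pregnenolone into testosterone, and before puberty SRD5A1 and AKR1C14 reduce much of it to androstanediol. In mice a fetal population of Leydig cells is gradually replaced after birth by an adult one, so a testis of this age can hold both.

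By name alone, the case column would be the Lin28a knockout and the control column wild type. Lin28a itself was at 23.4 FPKM in the case column and 8.82 FPKM in the control column, with a q of 0.00191 by the test in the authors' deposited table. The level of the targeted gene runs against such a reading, so the groups are called the columns labelled case and control, and directions hold for those names only. FPKM summed over all rows to 328509 in the case column and 325735 in the control column. Of the 12699 genes whose FPKM averaged at least 1, 60.8% were higher in the case column.

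Most genes of the androgen pathway had higher levels in the column labelled case, led by enzymes on the path between cholesterol and testosterone. Of the 10 members, 8 had the higher value in the case column, or 80.0% against 60.8% of all genes whose FPKM averaged at least 1, and all 10 were at or above that level. Among the genes with the higher value in the case column, the largest ratios were those of Hsd17b3 (1.57-fold), Cyp17a1 (1.46-fold) and Cyp11a1 (1.41-fold), while Hsd3b6 (1.43-fold) and Srd5a1 (1.03-fold) had the lower value there, as did 39.2% of all genes. None of the 10 rows passed a q-value of 0.05 in the authors' deposited table, where 0.0514% of the 13629 tested rows did so. At an unadjusted p under 0.05 there was 1 member, Hsd17b3, against 1.28% of the tested rows in either direction and 0.646% in the higher one in the authors' deposited table. That table was the one test available, and its p-values for the members ran between 0.0302 and 0.928, each with q = 0.999966.

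**Figure D1:**
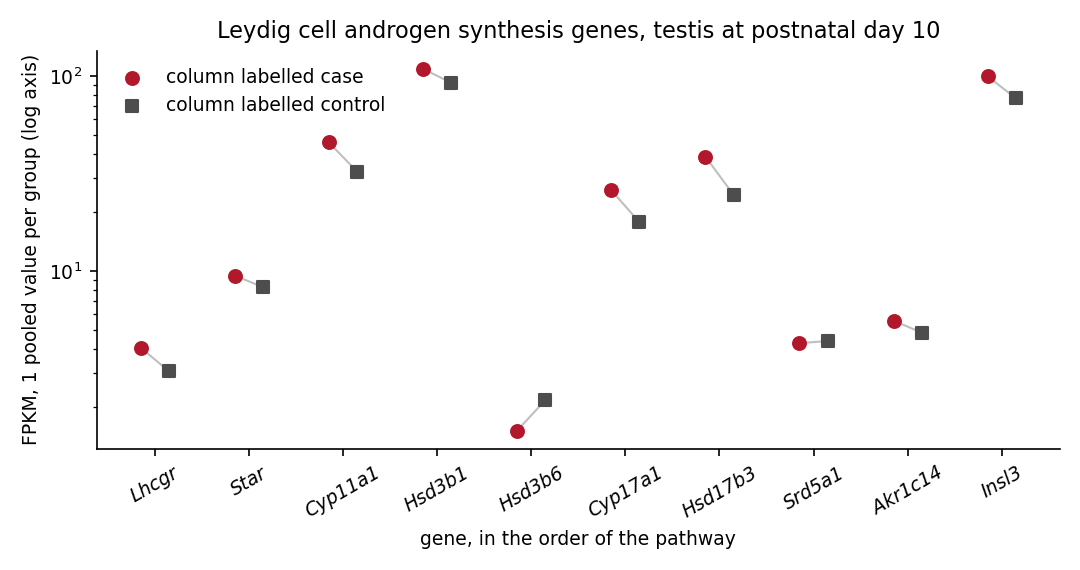
FPKM of each member on a log axis, with the pooled value of the column labelled case (red circles) left of that labelled control (grey squares); genes run in pathway order, with Insl3 last. The case value is the higher one for 8 genes and the lower one for Hsd3b6 and Srd5a1, and the genes have the same order of level in both columns.

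On the log2(FPKM + 1) scale, the case value minus the control value had a median of 0.27 over the 10 members, against 0.03 over the 12699 genes. It was above 0.2 for 6 members and above 0.4 for 3, where 11.3% and 1.83% of all genes lay. Adding 1 before the logarithm makes these differences smaller than the true ratio for genes at low FPKM. The members' FPKM summed to 344 in the case column and 267 in the control column, 1.29-fold. In RNA of whole testis, a different number of Leydig cells and a different amount of RNA per cell cannot be told apart.

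**Figure D2:**
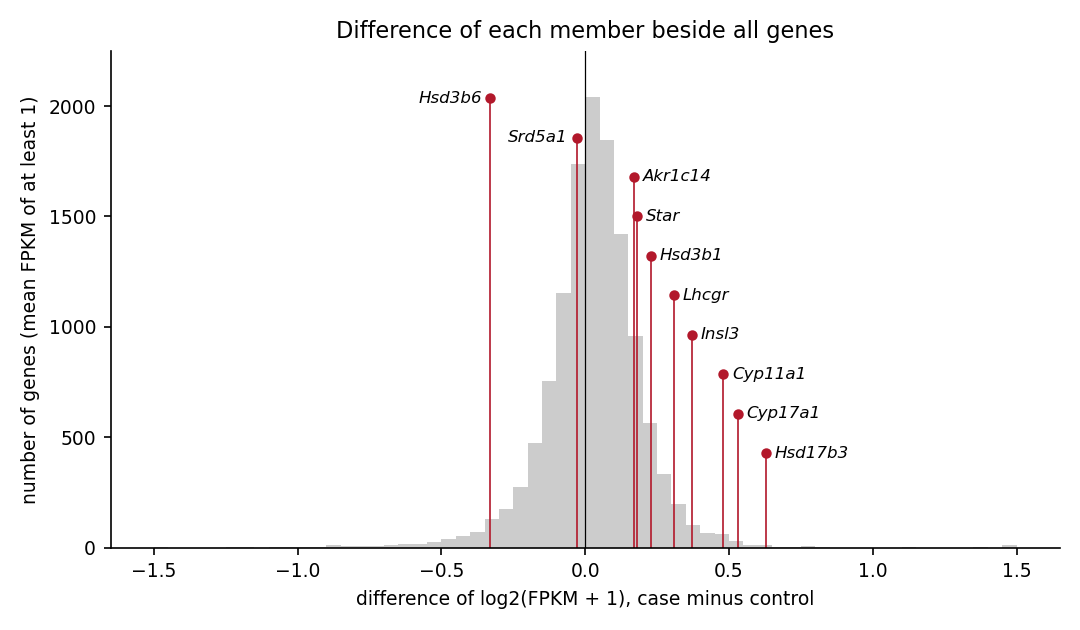
Histogram of log2(FPKM + 1) in the case column minus that in the control column, over 12699 genes averaging at least 1 FPKM (grey; values past either end of the axis are collected in the last bin), with each member marked in red at its own difference; heights of the red lines carry no value. Insl3, Cyp11a1, Cyp17a1 and Hsd17b3 lie at 0.37, 0.48, 0.53 and 0.63, and Hsd3b6 lies at -0.33; the middle 95% of all genes runs between -0.34 and 0.36.

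At the head of the pathway stands Lhcgr (NM_013582; mm10 chromosome 17, 88741549 to 88791976), the receptor for luteinizing hormone. It was at 4.05 FPKM in the case column and 3.07 FPKM in the control column, 1.32-fold higher, with p = 0.378 in the authors' deposited table. Star (NM_011485; chromosome 8, 25808513 to 25815982), which controls the acute, rate-limiting delivery of cholesterol, was at 9.49 FPKM in the case column and 8.27 FPKM in the control column. Its ratio of 1.15 had p = 0.505 in the authors' deposited table. Both ratios were below those of Cyp11a1, Cyp17a1 and Hsd17b3.

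Cyp11a1 (NM_019779; chromosome 9, 58015017 to 58027023), the side-chain cleavage enzyme, was at 45.7 FPKM in the case column and 32.4 FPKM in the control column. Its p was 0.0687 in the authors' deposited table, the 223rd smallest of 13629, and 0.984% of all genes had a difference at least as high. Cyp17a1 (NM_007809; chromosome 19, 46667165 to 46673000), whose hydroxylase and lyase steps commit the steroid to androgens, was at 26.0 FPKM in the case column and 17.8 FPKM in the control column. Its p was 0.0706 in the authors' deposited table, and 0.630% of all genes had a difference at least as high. Hsd17b3 (NM_008291; chromosome 13, 64058274 to 64089201), which reduces androstenedione to testosterone and in the fetal mouse testis is expressed in Sertoli cells, was at 38.7 FPKM in the case column and 24.6 FPKM in the control column. It had the smallest p of the set, 0.0302 in the authors' deposited table and the 124th smallest there, and 0.386% of all genes had a difference at least as high. The differences of these 3 enzymes, like that of Insl3, lay above the middle 95% of all genes, and none of the 4 genes passed the adjusted threshold.

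The pair of HSD3B genes ran in opposite directions. Hsd3b1 (NM_008293; chromosome 3, 98852197 to 98859794), the form found in both fetal and adult mouse Leydig cells, was the most abundant member, at 109 FPKM in the case column and 92.5 FPKM in the control column. Its ratio of 1.17 had p = 0.347 in the authors' deposited table. Hsd3b6 (NM_013821; chromosome 3, 98805504 to 98814443), a form that appears with the adult Leydig lineage in mice, was the least abundant, at 1.52 FPKM in the case column and 2.18 FPKM in the control column. It was 1.43-fold lower in the case column, with p = 0.430 in the authors' deposited table. Hsd3b1 was thus 71.4 times as abundant per length as Hsd3b6 in the case column and 42.4 times in the control column. The paralogs are similar in sequence and no source used here says how shared reads were assigned, so the low level of Hsd3b6 is uncertain. Their sum was 110.2 FPKM in the case column and 94.7 FPKM in the control column.

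The enzymes that lead from testosterone to androstanediol had ratios of 0.974 and 1.15. Srd5a1 (NM_175283; chromosome 13, 69573449 to 69611463), which makes dihydrotestosterone, was at 4.27 FPKM in the case column and 4.38 FPKM in the control column, with p = 0.928 in the authors' deposited table. Akr1c14 (NM_134072; chromosome 13, 4059591 to 4090422), which reduces dihydrotestosterone to androstanediol, was at 5.57 FPKM in the case column and 4.83 FPKM in the control column, with p = 0.606 in the authors' deposited table.

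Insl3 (NM_013564; chromosome 8), the peptide hormone by which Leydig cells drive descent of the testis, was at 99.6 FPKM in the case column and 76.9 FPKM in the control column. Its ratio of 1.29 had p = 0.226 in the authors' deposited table. The deposited position of this row, 71676383 to 71690577, is that of Jak3, within which Insl3 lies in the RefSeq table, so the genes overlap; the Jak3 rows were at 0.621 FPKM in the case column and 0.615 FPKM in the control column, with a further row listed at 0 in both. Insl3 and Hsd3b1 together made up 60.6% of the members' summed FPKM in the case column and 63.5% in the control column. The order of level was the same in both columns: Hsd3b1, Insl3, Cyp11a1, Hsd17b3, Cyp17a1, Star, Akr1c14, Srd5a1, Lhcgr and Hsd3b6, over a 54.3-fold span of mean FPKM. Without values per library, it cannot be said which neighbours in that order differ beyond their spread.

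Upstream sequence is shown for both genes of the HSD3B pair, which differed in direction, and for Cyp11a1 and Hsd17b3, the members with the smallest p-values whose promoter is in the RefSeq table. Capitals mark the core AGGNCA on either strand. It is a shorter part of AAGGNCA, the core searched for NR5A1, the nuclear receptor that drives steroid enzyme genes. None of the marked stretches lies in the longer core, so the marks do not show sites of NR5A1. Each run is the 250 bases before a gene start in the RefSeq table (for Cyp11a1 a start upstream of the deposited one), 5′ to 3′ on the gene's strand, in RefSeq build GRCm38.p6: chr9:58014702-58014951 (plus strand) for Cyp11a1, chr13:64089202-64089451 (minus strand) for Hsd17b3, chr3:98859795-98860044 (minus strand) for Hsd3b1 and chr3:98814444-98814693 (minus strand) for Hsd3b6.
Cyp11a1: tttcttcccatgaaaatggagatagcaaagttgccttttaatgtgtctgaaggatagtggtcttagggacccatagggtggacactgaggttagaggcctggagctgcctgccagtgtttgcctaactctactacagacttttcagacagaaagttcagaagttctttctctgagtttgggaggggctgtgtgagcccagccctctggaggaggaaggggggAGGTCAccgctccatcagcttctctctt
Hsd17b3: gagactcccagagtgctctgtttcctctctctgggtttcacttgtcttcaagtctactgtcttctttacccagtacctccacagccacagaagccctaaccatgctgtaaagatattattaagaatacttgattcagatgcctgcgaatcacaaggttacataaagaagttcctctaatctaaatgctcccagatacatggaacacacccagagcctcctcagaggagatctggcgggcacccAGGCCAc
Hsd3b1: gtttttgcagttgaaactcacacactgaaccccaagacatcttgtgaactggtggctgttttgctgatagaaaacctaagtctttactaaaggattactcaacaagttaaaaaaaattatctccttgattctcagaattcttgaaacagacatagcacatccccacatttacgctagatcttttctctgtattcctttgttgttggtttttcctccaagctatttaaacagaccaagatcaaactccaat
Hsd3b6: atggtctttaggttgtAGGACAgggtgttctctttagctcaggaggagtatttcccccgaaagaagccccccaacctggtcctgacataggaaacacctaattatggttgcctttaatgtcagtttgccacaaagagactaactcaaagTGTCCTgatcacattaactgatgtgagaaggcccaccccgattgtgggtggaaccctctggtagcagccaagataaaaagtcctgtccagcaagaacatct

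Of the 10 members, 8 had a promoter window in the table. Star and Cyp17a1 had none, so their promoters were not searched. The core AGGNCA lay in 4 of these, those of Cyp11a1, Hsd17b3, Hsd3b6 and Lhcgr, against 54.8% of the 27025 genes with a window. The longer core AAGGNCA, which holds the shorter one, lay in 0 of the 8, against 19.7% of all genes. Of the windows listed for Cyp11a1, the one shown lies nearest the deposited start. There the core ran from 28 to 23 bases before the RefSeq start of that window, and in Hsd17b3 from 7 to 2 bases before it. The windows of Hsd3b1 and Hsd3b6 were 49.3% identical over an alignment of 296 columns, within the 42.4% to 52.8% of all pairs of member windows aligned, and that of Hsd3b6 held the core in 2 places against none in that of Hsd3b1. A match or its absence describes these letters alone.

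The partners of these enzymes had smaller median differences than the 10 members. Counts in this and the later lists stand beside 60.8% of all genes higher in the case column and 39.2% lower. Under an unadjusted p of 0.05 in the authors' deposited table lay 1.28% of the tested rows. Such counts below cover only genes whose main row, the most abundant one, was tested. Of 5 genes that pass electrons to the steroid P450 enzymes, 4 had the higher value in the case column, with a median difference of 0.06 and 0 under an unadjusted p of 0.05 in the authors' deposited table. Fdxr, the ferredoxin reductase that serves CYP11A1, was at 35.7 FPKM in the case column and 29.9 FPKM in the control column, with p = 0.344 in the authors' deposited table. Fdx1, its ferredoxin, was at 29.1 and 25.8 FPKM in the case and control columns, and Por, the reductase that serves CYP17A1, at 24.2 and 23.1 FPKM. Genes of cholesterol supply had 7 of 11 higher and a median of 0.03. Of the 10 with a tested main row, 0 were under an unadjusted p of 0.05 in the authors' deposited table. Lipe, a lipase that frees cholesterol from its esters, was at 5.11 and 4.52 FPKM in the case and control columns with its rows summed, and at 5.11 and 3.73 FPKM in its most abundant row, and Tspo, a protein of the outer mitochondrial membrane, at 20.2 and 23.8 FPKM.

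Regulators had median differences between that of the members and that of all genes, though single genes lay outside that span. Transcription regulators of steroid synthesis had 11 of 13 analysed genes higher, with a median difference of 0.11. Of the 11 with a tested main row, 0 were under an unadjusted p of 0.05 in the authors' deposited table. Nr0b1, a repressor of NR5A1, was at 28.3 FPKM in the case column and 31.8 FPKM in the control column, with p = 0.542 in the authors' deposited table. Gata6 was at 18.9 and 17.0 FPKM and Nr0b2 at 1.37 and 0.975 FPKM in the case and control columns; Nr5a1 itself, named outside the rule and after its values were seen, was at 53.4 FPKM in the case column and 49.5 FPKM in the control column. Genes of LH receptor signalling had 13 of 17 analysed genes higher and a median of 0.11. Of the 14 listed genes with a tested main row, 0 were under an unadjusted p of 0.05 in the authors' deposited table. Adcy6, an adenylyl cyclase, was at 5.58 and 4.03 FPKM in the case and control columns, with p = 0.137 in the authors' deposited table. Igf1r was at 11.95 and 10.5 FPKM in the case and control columns. Prlr, the prolactin receptor, was at 3.23 and 2.70 FPKM in its main row, and at 4.23 and 2.99 FPKM with its rows summed.

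Other steroid enzymes had 9 of 10 analysed genes higher, a median of 0.11 and 0 under an unadjusted p of 0.05 in the authors' deposited table. Hsd17b1, an enzyme that also forms testosterone in the mouse and is expressed in fetal Sertoli cells, was at 11.4 FPKM in the case column and 6.72 FPKM in the control column, with p = 0.0746 in the authors' deposited table. Its difference of 0.68 was above that of any member. Hsd17b12 was at 67.6 and 59.6 FPKM and Hsd11b2, which inactivates glucocorticoids, at 1.97 and 1.31 FPKM in the case and control columns.

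Genes that respond to androgen in Sertoli cells ran the other way. Of 6 analysed genes on the list of androgen and INSL3 reception, 5 had the lower value in the case column and the median difference was -0.21. Rhox5, a homeobox gene of chromosome X known as an androgen target, was at 8.90 FPKM in the case column and 19.3 FPKM in the control column, with p = 0.0254 (q = 0.999966) in the authors' deposited table. Drd4, another gene known to respond to androgen in mouse Sertoli cells, was at 15.4 FPKM in the case column and 21.0 FPKM in the control column, with p = 0.207 in the authors' deposited table. Cldn3, a tight junction gene, was at 0.986 and 1.43 FPKM in the case and control columns.

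Markers of Leydig stages were mixed. Of 7 adult Leydig markers, 3 were analysed, of which 2 had the higher value in the case column, with a median difference of 0.39. Another 3, namely Sult1e1, Cyp2a4 and Cyp2a5, were listed at 0 in both columns. Hsd11b1, which was not analysed, was at 0.350 and 0.620 FPKM in the case and control columns in its most abundant row. Among the analysed genes, Prlr, described above, was at 4.23 and 2.99 FPKM in the case and control columns with its rows summed. Ptgds, a prostaglandin synthase, was at 12.8 FPKM in the case column and 7.33 FPKM in the control column, with p = 0.103 in the authors' deposited table, while Vcam1 was at 24.3 and 24.4 FPKM in the case and control columns. Of 6 fetal Leydig and adrenal-like markers, 2 were analysed: Thbs2 was at 11.7 FPKM in the case column and 9.34 FPKM in the control column, and Akr1b7 at 3.81 and 6.06 FPKM, with p = 0.217 and p = 0.199 in the authors' deposited table.

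Markers of Leydig progenitors and stroma, peritubular myoid cells and endothelium were higher alongside the androgen genes, while those of macrophages, described below, were lower. All 13 Leydig progenitor and interstitial stroma markers had the higher value in the case column, as did 60.8% of all genes. Their median difference was 0.25, and their FPKM summed to 455 in the case column and 402 in the control column. Among them Tcf21 was at 55.5 and 41.5 FPKM, Col1a1 at 69.9 and 53.9 FPKM and Gli1, a hedgehog target, at 8.62 and 6.63 FPKM in the case and control columns. All 5 peritubular myoid markers were higher (median 0.16, summed FPKM 432 in the case column and 373 in the control column), among them Tagln at 53.6 and 44.6 FPKM, Acta2 at 318 and 274 FPKM and the main row of Myh11 at 40.5 and 35.8 FPKM in the case and control columns. All 6 endothelial markers were higher (median 0.23, summed FPKM 38.8 in the case column and 32.4 in the control column). Among them Cdh5 was at 16.2 and 14.0 FPKM and Kdr at 4.14 and 3.27 FPKM in the case and control columns. Eng was at 7.84 and 5.41 FPKM in its main row, and at 9.76 and 7.73 FPKM with its rows summed. Single differences reached down to 0.02 for Dcn and 0.04 for Cnn1, near the median of 0.03 over all genes. The counts of these 3 lists were not repeated after rescaling of the columns. In the lists, 12, 5 and 5 genes had a tested main row, of which 0 were under an unadjusted p of 0.05 in the authors' deposited table. No gene of these lists was listed at 0 in both columns. The part of these cells in the values of the androgen genes was not tested.

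Germ cell, macrophage and Sertoli markers did not share that direction. Germ cell markers had 9 of 10 lower in the case column, as were 39.2% of all genes. Their median was -0.18, and their FPKM summed to 668 in the case column and 879.6 in the control column. Tex101 was at 87.0 FPKM in the case column and 165 FPKM in the control column (q = 0.292 in the authors' deposited table), Sycp1, of the synaptonemal complex, at 38.5 and 59.1 FPKM, and Stra8, needed to enter meiosis, at 68.1 and 86.3 FPKM in the case and control columns. Of the 8 germ cell markers with a tested main row, 2 were under an unadjusted p of 0.05 in the authors' deposited table, both lower. The same held for 0 of 7 macrophage and 0 of 10 Sertoli markers, and for 1.28% of all tested rows in either direction. All 7 macrophage markers analysed were lower, with a median of -0.16, among them Lyz2 at 31.9 and 45.6 FPKM, C1qb at 10.1 and 11.9 FPKM and C1qc at 13.3 and 15.7 FPKM in the case and control columns. Over the 8 macrophage markers with a row, analysed or not, FPKM summed to 83.1 in the case column and 103 in the control column. Sertoli markers had 6 of 10 lower, a median of -0.02 and summed FPKM of 3949.8 in the case column and 4174 in the control column. Of these sums, Clu alone held 2028 FPKM in the case column and 2251 FPKM in the control column. Sox9 was at 35.1 and 30.5 FPKM, Amh at 128 and 108 FPKM and Gata1 at 20.9 and 24.6 FPKM in the case and control columns. Of 8 epididymis and duct markers, 5 were listed at 0 in both columns, while Crisp1 was at 0.261 FPKM in the case column and 2.27 FPKM in the control column and Defb42 at 6.07 and 4.52 FPKM; Crisp1 had p = 0.00256 in the authors' deposited table. Their part in the values of the androgen genes was not tested.

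**Figure D3:**
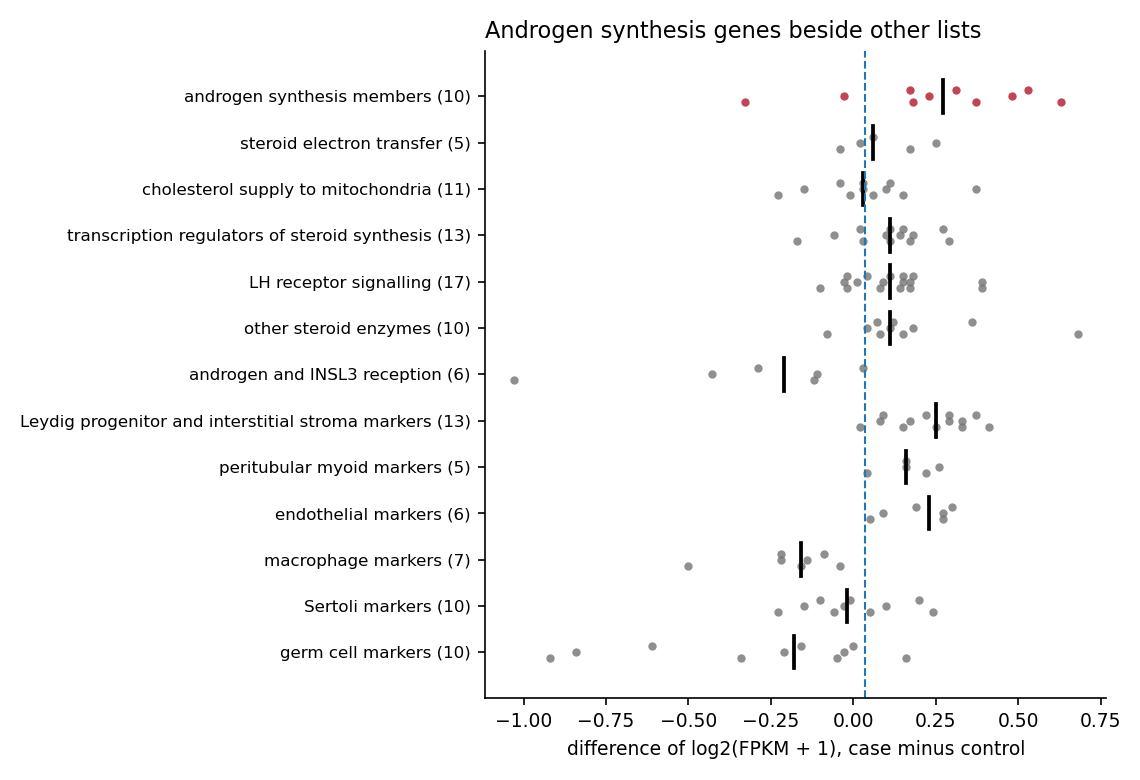
Log2(FPKM + 1) in the case column minus that in the control column for each analysed gene (1 dot a gene) in each list with at least 5 analysed genes, with the number of genes in parentheses; black bars are list medians, the blue dashed line the median of 12699 genes, and vertical scatter carries no value. The androgen synthesis members (red, median 0.27) and the stroma and endothelial markers (0.25 and 0.23) lie to the right of the line, and germ cell markers (-0.18) to its left.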

How the data were processed

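Per the submitters' processing notes, TopHat2 2.0.9 aligned the reads and the build was mm10; the program behind the values, and how it used the replicates, are not given in the sources used here. In the table, the authors deposited, per the file headers, FPKM in 2 pooled columns, with a log2 ratio, a p-value and a q-value for each row. The ratio was control over case, to within 5.01e-05, in the 13586 tested rows with both values above 0, and was turned round here. Calls are the authors' own at q under 0.05, over the 13629 rows with status OK.

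Symbols came by accession from a RefSeq table of GRCm38.p6 for 98.0% of rows. Deposited starts counted from 0 and 1 was added. FPKM was summed per gene, and genes with a mean of at least 1 were described by the difference of log2(FPKM + 1). Functions were tested on simulated data. Python 3.11.15, pandas 2.3.3 and numpy 2.4.6 were used.

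The members and lists were chosen with earlier results of these data known. Besides all members, each list's 3 genes with the smallest authors' p-value in their most abundant row were named, except where a gene is not reported here. Alternatives changed the pseudocount, filter, scaling, row choice, threshold, membership and motif. The protein comparison planned for Hsd3b1 and Hsd3b6 was not run.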

Additional observations from a re-analysis of the deposited data

How the results depend on the processing

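The count of 8 members with the higher value in the column labelled case stayed within 1.5 times under all 8 alternatives, with 7 of 7 left by a filter at 5 FPKM and 6 of 8 without Insl3 and Lhcgr. Their median difference of 0.27 ran from 0.20 without Insl3 and Lhcgr to 0.37 with the filter at 5 FPKM. Of 40 single-member differences under alternatives, 39 moved by under 0.1 and 0 changed sign. That of Hsd3b6 moved to -0.49 with a pseudocount of 0.1. Part of this stability was fixed in advance. Each member has a single row and averaged at least 1 FPKM, so row choice and dropping the filter could not change the members' values. A pseudocount cannot change the sign of a difference. Median-of-ratios rescaling divided the ratio of the columns by 1.03 and put 50% of all genes higher, against 60.8% as deposited, and quantile normalization put 52.1% higher; 8 members were higher under both. None of the member rows was called at an adjusted p under 0.10 or after dropping tested rows that averaged under 1 or under 5 FPKM, where the calls over all rows numbered 7, 7 and 6. Members with the motif numbered 0 with the core of 7 letters and 4 with the core of 6 letters, which is shorter by construction. No paired analysis was possible because no values per library were analysed, and for the same reason leaving out each library was not run. No interval is given, since depth is unknown.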

Other observations

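Paralogs of the pathway enzymes ranged from abundant to listed at 0. Hsd17b10 was at 52.9 FPKM in the case column and 50.1 FPKM in the control column, Hsd17b4 at 44.0 and 42.9 FPKM, Hsd17b11 at 30.8 and 29.0 FPKM, and Srd5a3 at 8.66 and 7.90 FPKM in the case and control columns. These genes were picked with their values in view. Hsd3b2 and Hsd3b5 were listed at 0 in both columns. Of the aldo-keto reductases, Akr1c6, Akr1c18 and Akr1c21 were listed at 0 in both columns, and Akr1c13 was at 0.674 FPKM in the case column and 0.689 FPKM in the control column. Srd5a2, a second reductase that makes dihydrotestosterone, was at 0.282 and 0.20 FPKM in the case and control columns, below Srd5a1. Cyp11b1, which makes corticosteroids in the adrenal cortex and is found in mouse fetal Leydig cells, was at 0.122 FPKM in the case column and 0.717 FPKM in the control column, with a row the authors did not test. Cyp21a1, an adrenal enzyme, was at 0.462 and 0.304 FPKM in the case and control columns, and Cyp19a1, the aromatase that makes estrogen, was at 0.0814 FPKM in the case column and listed at 0 in the control column. Rxfp2, the receptor for INSL3, was listed at 0 in the case column and at 0.0263 FPKM in the control column.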
